A study of Mus musculus with 8 samples.

Results

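The VEGF family is described here as 10 genes in heart tissue: the ligand genes Vegfa, Vegfb, Pgf, Vegfc and Vegfd, the receptor genes Flt1, Kdr and Flt4, and the co-receptor genes Nrp1 and Nrp2. Members were taken by symbol from the deposited expression table, and all 10 had values, among 18835 genes with values. The 8 libraries came from hearts of BALB/cAJcl males aged 10 weeks, all immunized with cardiac myosin to set off autoimmune myocarditis. In the VEGF-C group (4 libraries) mice were injected intraperitoneally with VEGF-C C156S at 1 µg a day on days 7 to 10 after immunization. In the PBS group (4 libraries) they received the buffer on the same days, and hearts of both groups were taken at week 3. Both groups are immunized, and mice without myocarditis were not analysed here.

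VEGF-A, VEGF-B and placental growth factor (the product of Pgf) bind the receptor VEGFR-1, encoded by Flt1, and VEGF-A also binds VEGFR-2, encoded by Kdr, the main signalling receptor of blood vessel endothelium. VEGF-C and VEGF-D are made as precursors, and after proteolytic cleavage they act on VEGFR-3, encoded by Flt4, the receptor that lymphatic endothelium depends on. The C156S form has a cysteine replaced by serine and acts through VEGFR-3 with little action on VEGFR-2. Neuropilins hold VEGFs at their receptors and also bind class 3 semaphorins. In the heart, cardiomyocytes are a major source of VEGF-A and VEGF-B, and endothelial cells carry the receptors.

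The title of the series names cardiac lymphatic endothelial cells, but the samples are labelled heart, and they were read as whole heart. Myh6, the alpha myosin heavy chain of heart muscle, stood at 253798 ± 23131 normalized reads per kilobase of exon in the VEGF-C group and 204529 ± 47546 in the PBS group. Prox1, a transcription factor of lymphatic endothelium, stood at 334 ± 27.7 and 331 ± 41.3 on the same scale (SD, n = 4 each). Normalized reads are read counts divided by 1 factor per library. Read totals were 53679737 to 65230480 in the VEGF-C group and 61713842 to 76803952 in the PBS group. The factors were 0.770 to 0.943 in the VEGF-C group and 1.02 to 1.23 in the PBS group. On the first principal component, with 37.05% of the variance, the groups lay apart. VEGF-C libraries were at -39.17 to -29.65 and PBS libraries at 21.61 to 40.62, and the cause of that split was not tested. PBS replicate 1 stood apart from the other 7 libraries on the second principal component (56.8, against -25.6 to 5.82), which held 19.7% of the variance. In whole tissue, a change in the number of cells of a type cannot be told apart from a change in RNA per cell.

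Vegfb, Flt1 and Flt4 passed as higher in hearts of VEGF-C-treated mice, and no member passed as lower. Of these calls only that of Vegfb was kept in every other fit. Vegfb, the VEGFR-1 ligand, was 1.57-fold higher, Flt4 1.32-fold and Flt1 1.29-fold. Of the 10 genes 3 passed an adjusted p of 0.05 in limma and all 3 were higher, where 7.05% of all genes tested passed as higher, 8.61% as lower and 15.7% in either direction. As lower, 0 members passed, also at an unadjusted p under 0.05 and with limma-voom. Among the 10483 genes with a mean deposited log2 value of at least 9, the range in which the members lie, 11.9% passed as higher. The median log2 fold change of the 10 genes was 0.22, against 0.0013 over all genes and 0.09 over those 10483 genes. Fold changes were positive in 9 genes and negative in Vegfd, where 50.2% of all genes and 65.0% of those 10483 had a positive one. With library totals 6 of the 10 were positive. The groups did not overlap in 2 genes, Vegfb and Flt1, where 23.0% of all genes had groups that did not overlap and 11.5% had every VEGF-C library above every PBS library.

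**Figure D1:**
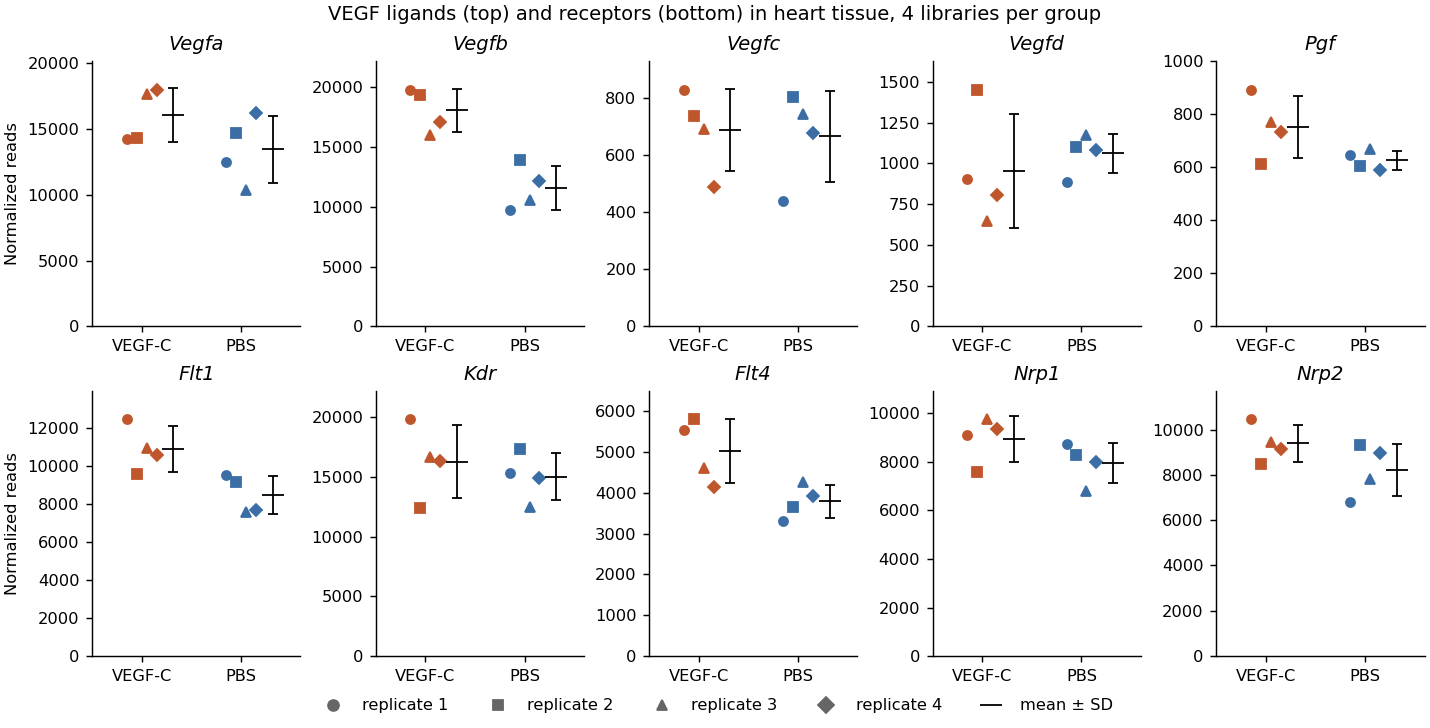
Normalized reads (vertical axes, starting at 0) of the 5 ligand genes (top) and 5 receptor genes (bottom), with 1 point per library and the mean ± SD of 4 libraries per group; the same marker shape in both groups does not pair animals. All 4 VEGF-C libraries lie above all 4 PBS libraries in Vegfb and Flt1, and the groups overlap in the other genes.

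Among the ligands of VEGFR-1 and VEGFR-2, Vegfb changed most. Vegfb (ENSMUSG00000024962) had 19775, 19318, 16016 and 17086 normalized reads in VEGF-C replicates 1 to 4, against 9692, 13853, 10532 and 12147 in PBS replicates 1 to 4. The lowest VEGF-C library lay above the highest PBS library. The means were 18048 ± 1794 in the VEGF-C group and 11556 ± 1840 in the PBS group (SD, n = 4). The fold change on the log2 scale was 0.65 ± 0.12 (SE), and limma gave an adjusted p of 0.00672. The call was kept under each other scaling, in each other fit and with any 1 library left out (limma adjusted p up to 0.0236 with a library left out). The authors' deposited table gives Vegfb a log2 fold change of 0.64 with an adjusted p of 1.21e-05.

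Vegfa and Pgf did not pass. Vegfa (ENSMUSG00000023951), the main hypoxia-induced angiogenic factor, had 14243, 14296, 17594 and 17970 normalized reads in VEGF-C replicates 1 to 4, against 12439, 14708, 10361 and 16203 in PBS replicates 1 to 4. VEGF-C replicates 3 and 4 were above every PBS library, and replicates 1 and 2 were within the PBS range. The log2 fold change of Vegfa was 0.27 with a 95% interval of -0.05 to 0.58 (limma adjusted p = 0.222). Pgf (ENSMUSG00000004791), a VEGFR-1 ligand of placenta and of inflamed or injured tissue, had 894, 612, 772 and 735 normalized reads in the VEGF-C group and 645, 606, 668 and 591 in the PBS group. VEGF-C replicate 2 was within the narrow PBS range and the other 3 lay above it. Its log2 fold change was 0.25 with a 95% interval of -0.01 to 0.51 (limma adjusted p = 0.175).

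The transcripts of the VEGFR-3 ligands did not pass either, and their spread was wide. Vegfc (ENSMUSG00000031520), the gene of the factor that was administered, had 830, 738, 694 and 488 normalized reads in VEGF-C replicates 1 to 4, against 441, 804, 745 and 678 in PBS replicates 1 to 4. The ranges nearly coincided, with 1 low library in each group. The log2 fold change was 0.05, with a 95% interval of -0.41 to 0.51 that spans 0.754-fold to 1.43-fold (limma adjusted p = 0.888), and without PBS replicate 1, the lowest of that group, it was -0.13. Vegfd (ENSMUSG00000031380), an X-linked lymphangiogenic factor, had 907, 1452, 645 and 805 normalized reads in the VEGF-C group and 887, 1101, 1172 and 1082 in the PBS group. VEGF-C replicate 2 was the highest of the 8 libraries, and replicates 3 and 4 were the lowest. The log2 fold change of Vegfd was -0.21 with a 95% interval of -0.68 to 0.25 (limma adjusted p = 0.520). It was -0.44 without VEGF-C replicate 2 (limma adjusted p = 0.0749) and -0.049 without VEGF-C replicate 3.

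Of the receptors, Flt1 and Flt4 passed the threshold narrowly and Kdr did not. Flt1 (ENSMUSG00000029648), whose product binds VEGF-A, VEGF-B and placental growth factor and also occurs as a soluble decoy, had 12463, 9602, 10944 and 10574 normalized reads in VEGF-C replicates 1 to 4, against 9505, 9161, 7566 and 7700 in PBS replicates 1 to 4. The groups did not overlap, but VEGF-C replicate 2 lay only just above PBS replicate 1. VEGF-C over PBS, Flt1 differed by 0.36 ± 0.10 on the log2 scale (SE, n = 4 each; limma adjusted p = 0.0417). Flt4 (ENSMUSG00000020357), the receptor of the administered factor, had 5534, 5800, 4593 and 4138 normalized reads in the VEGF-C group and 3299, 3658, 4272 and 3919 in the PBS group. VEGF-C replicate 4 was within the PBS range and the other 3 were above it. For Flt4 the difference was 0.40 ± 0.12 on the same scale (SE, n = 4 each; limma adjusted p = 0.0481). In the authors' deposited table Flt1 and Flt4 have adjusted p-values of 0.0125 and 0.0135.

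Kdr (ENSMUSG00000062960) had 19837, 12369, 16650 and 16295 normalized reads in VEGF-C replicates 1 to 4, against 15344, 17299.5, 12509 and 14930 in PBS replicates 1 to 4. The VEGF-C group held both the highest and the lowest of the 8 libraries. Its log2 fold change was 0.11 with a 95% interval of -0.21 to 0.42 (limma adjusted p = 0.648). It was 0.23 without VEGF-C replicate 2 (limma adjusted p = 0.235), 0.0048 without VEGF-C replicate 1 and 0.022 without PBS replicate 3. The calls of Flt1 and Flt4 rested on many of the libraries. That of Flt1 was lost without VEGF-C replicate 1, 3 or 4 or PBS replicate 2, 3 or 4 (limma adjusted p up to 0.102), and that of Flt4 without VEGF-C replicate 1, 2 or 3 or PBS replicate 1, 2 or 4 (up to 0.118).

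**Figure D2:**
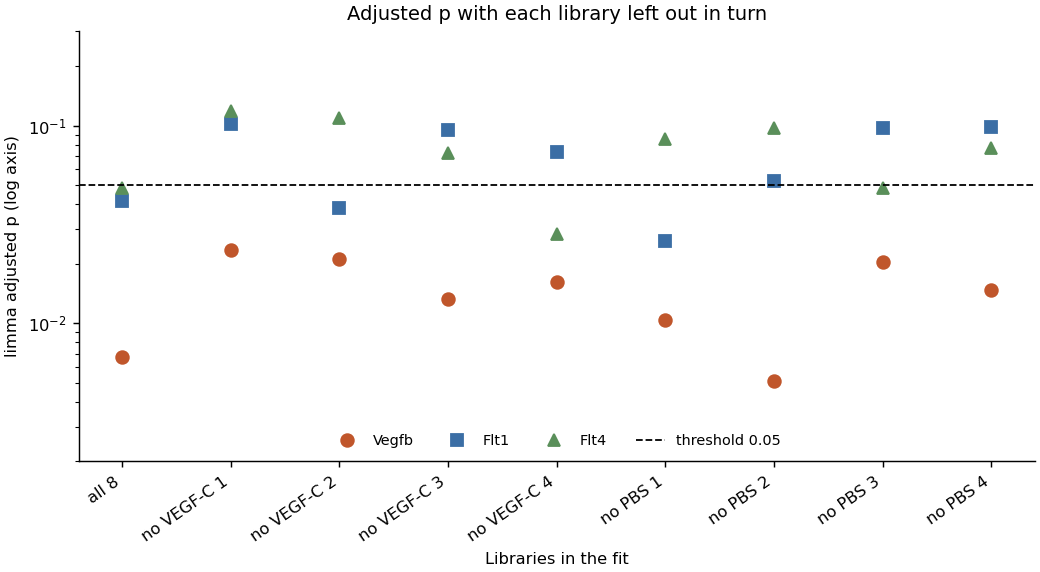
Adjusted p-value of limma (vertical log axis) for Vegfb, Flt1 and Flt4 in the fit of all 8 libraries and in the 8 fits that leave out 1 library each. Vegfb stays under the dashed threshold of 0.05 in every fit, between 0.00513 and 0.0236 with a library left out, while Flt1 and Flt4 cross it in 6 of the 8 fits each.

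The neuropilin genes did not pass. Nrp1 (ENSMUSG00000025810), the co-receptor of arterial endothelium that binds VEGF-A, had 9099, 7567, 9761 and 9368 normalized reads in the VEGF-C group and 8733, 8280, 6785 and 7976 in the PBS group. The PBS range lay lower, but VEGF-C replicate 2 fell within it. For Nrp1 the log2 fold change was 0.17 with a 95% interval of -0.06 to 0.40 (limma adjusted p = 0.277). Nrp2 (ENSMUSG00000025969), the co-receptor of veins and lymphatics that binds VEGF-C, had 10459, 8488, 9460 and 9146 normalized reads in the VEGF-C group and 6805, 9326, 7835 and 8952 in the PBS group. PBS replicate 1 was the lowest of the 8 libraries and 2 VEGF-C libraries lay above every PBS library. That of Nrp2 was 0.20 with a 95% interval of -0.04 to 0.44 (limma adjusted p = 0.235), and without PBS replicate 1 it was 0.11 (limma adjusted p = 0.461).

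Signs and calls of several members depended on how the libraries were scaled to each other. Library totals in place of the deposited factors moved the median of all genes by -0.19 on the log2 scale. With library totals Vegfb was still higher (log2 fold change 0.46), and it was the only member that passed. Flt1 and Flt4 kept a positive sign without passing (0.17 and 0.21, limma adjusted p = 0.263 and 0.267), and Vegfc, Kdr and Nrp1 turned negative (-0.14, -0.085 and -0.020). With upper-quartile factors Flt1 and Flt4 did not pass either (limma adjusted p = 0.0732 and 0.0968), and with TMM factors Flt4 alone of the 3 did not (0.0510).

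**Figure D3:**
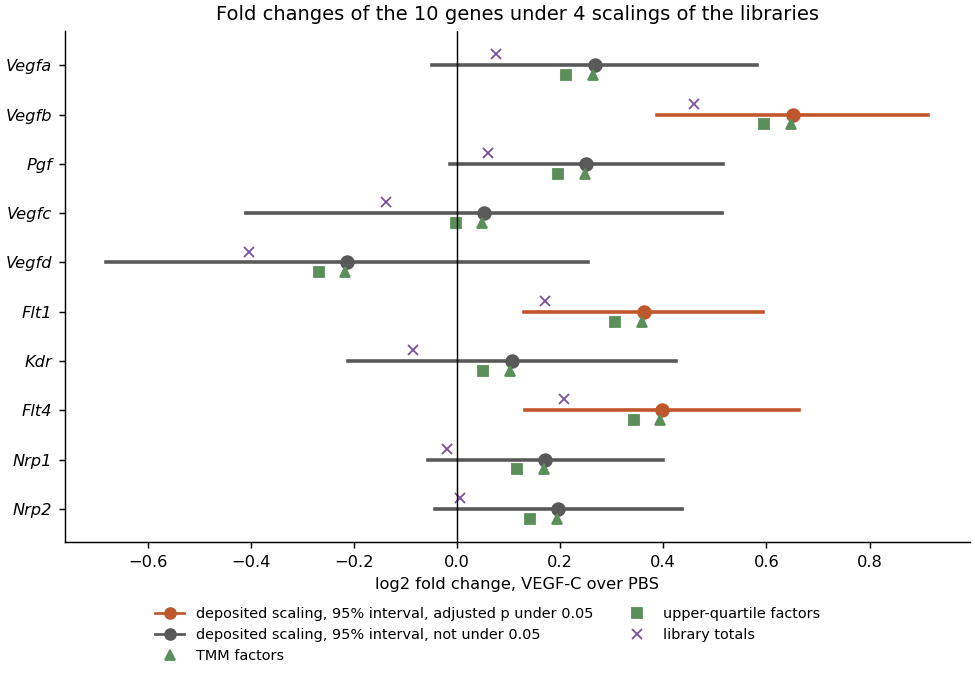
Log2 fold change of VEGF-C over PBS (horizontal axis) for the 10 genes, with circles and 95% intervals from the deposited scaling and further markers for TMM factors, upper-quartile factors and library totals. Vegfb lies to the right of 0 under all 4 scalings (0.65 as deposited, 0.46 with library totals), and Kdr, Vegfc and Nrp1 lie on either side of 0 depending on the scaling.

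Differences between 2 members within a library do not depend on that scaling. They are not corrected for exon length, so their sign does not rank the 2 genes by level. Flt1 was higher relative to Kdr in each VEGF-C library than in any PBS library. The log2 value of Flt1 minus that of Kdr was -0.67, -0.37, -0.61 and -0.62 in VEGF-C replicates 1 to 4, against -0.69, -0.92, -0.73 and -0.96 in PBS replicates 1 to 4. VEGF-C replicate 1 lay just above PBS replicate 1. The difference of the group means was 0.26 (exact two-sided permutation test, p = 0.0286, the smallest that 4 against 4 libraries allow), and over the 8 pairs compared the adjusted p of the exact test was 0.229. Vegfb minus Vegfa averaged 0.17 ± 0.32 in the VEGF-C group and -0.21 ± 0.21 in the PBS group (exact p = 0.143, adjusted p = 0.381). In VEGF-C replicates 1 and 2 it was 0.47 and 0.43, and in replicates 3 and 4, which had the most Vegfa, -0.14 and -0.07. Nrp1 minus Nrp2 averaged -0.07 ± 0.13 in the VEGF-C group and -0.05 ± 0.27 in the PBS group, and Flt4 minus Flt1 -1.13 ± 0.28 and -1.16 ± 0.32 in the same order (SD, n = 4; exact p = 0.914 for each). Without PBS replicate 1 the difference of the group means was 0.11 for Nrp1 minus Nrp2, against -0.03 with it, and -0.085 for Flt4 minus Flt1, against 0.04. For Pgf minus Vegfa it was 0.028, against -0.02. After adjustment 0 of the 8 pairs passed, and a single pair at the smallest exact p could not pass.

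Receptor transcripts were also set against 15 blood endothelial marker genes, since endothelial cells carry the receptors. The source of each transcript in this tissue was not measured, and the 15 genes leave out lymphatic endothelium and other cells. The mean log2 value of these markers ranged from 12.66 to 12.90 in VEGF-C libraries and from 12.59 to 12.90 in PBS libraries, and their summed level from 140704 to 164792 and from 126905 to 150386 normalized reads. Relative to that mean, Flt4 was at -0.47, -0.39, -0.51 and -0.65 in VEGF-C replicates 1 to 4, against -0.90, -1.06, -0.74 and -0.81 in PBS replicates 1 to 4. The groups did not overlap on this measure, although they did in Flt4 alone. The means differed by 0.37 (exact two-sided p = 0.0286, adjusted p = 0.143 over the 5 receptors). A single receptor of the 5 at the smallest exact p could not pass. Flt4 was not set against lymphatic endothelial markers in this way, so its separation holds for the blood endothelial markers only. Flt1 relative to the blood endothelial markers averaged 0.62 ± 0.19 in the VEGF-C group and 0.28 ± 0.24 in the PBS group (exact p = 0.0571, adjusted p = 0.143). PBS replicate 1, at 0.62, lay within the VEGF-C range. With the median of the markers in place of their mean, Flt1 differed by 0.86, Flt4 by 0.90, Nrp1 by 0.67 and Nrp2 by 0.70 (exact test, adjusted p = 0.0357 for each). That median lay lower in VEGF-C libraries (12.515 to 12.862) than in PBS libraries (13.087 to 13.298), and at different genes in the 2 groups. Kdr averaged 1.19 ± 0.32 in the VEGF-C group and 1.11 ± 0.21 in the PBS group (exact p = 0.571), with VEGF-C replicate 2 lowest at 0.70.

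The marker lists themselves held few changes. Of the 15 blood endothelial genes Eng, a co-receptor of TGF-beta family signals, was higher (log2 fold change 0.49 ± 0.08, limma adjusted p = 0.00426) and Egfl7, a secreted endothelial protein, lower (-0.92 ± 0.14, limma adjusted p = 0.00319), with a median of 0.16 over the list. With library totals the median was -0.033 and 2 genes were lower, and 2 were also lower without PBS replicate 1. Pecam1 and Cdh5, which encode endothelial junction proteins, had fold changes of 0.16 and 0.22 and did not pass. Of the 10 lymphatic genes the integrin gene Itga9 was higher (0.32) and Sned1 lower (-1.10), with a median of 0.10. This median ran from 0.0067 to 0.26 with 1 library left out and was -0.085 with library totals. Their mean log2 value ranged from 10.42 to 11.08 in VEGF-C libraries and from 10.20 to 10.92 in PBS libraries, with the summed level at 21089 to 33534 and 18306 to 26857 normalized reads. The other 8 lymphatic genes did not pass, among them Prox1 (0.01), Lyve1 (0.11), Pdpn (0.05), Ccl21a (0.27) and Mmrn1 (0.43). Itga9 did not pass without VEGF-C replicate 3 or with library totals. By library, the mean log2 value of the lymphatic genes was 10.64, 11.08, 10.42 and 10.64 in VEGF-C replicates 1 to 4. In PBS replicates 1 to 4 it was 10.20, 10.61, 10.92 and 10.83. The part of lymphatic endothelial abundance in the change of Flt4 was not tested.

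Cardiomyocyte markers were read beside Vegfb. Their mean log2 value ranged from 17.94 to 18.09 in the VEGF-C group and from 17.54 to 17.86 in the PBS group, and the summed level of the 10 genes from 4046614 to 4562581 and from 3028458 to 3983032 normalized reads. One of the 10, the sarcomere gene Actn2, passed (log2 fold change 0.61), and the median of the list was 0.34, or 0.15 with library totals. The number that passed was 3 with limma-voom and without PBS replicate 4, and 4 had an unadjusted p under 0.05 as higher. Actc1, Ryr2, Myl2 and Myh6 had log2 fold changes of 0.48, 0.42, 0.34 and 0.34, and Tnnt2, Tnni3 and Pln of -0.0059, 0.056 and 0.057. None of these passed. The fold change was positive in 9 of the 10 genes, as in 50.2% of all genes. In 3 of the 10 every VEGF-C library lay above every PBS library, as in 11.5% of all genes. Vegfb was also read relative to the mean of the 10 cardiomyocyte markers, a measure added after the data were seen. It was at -3.69, -3.85, -3.97 and -3.94 in VEGF-C replicates 1 to 4 and at -4.43, -3.97, -4.18 and -4.29 in PBS replicates 1 to 4. VEGF-C replicate 3 and PBS replicate 2 met at the boundary of the groups. The means differed by 0.36 (exact two-sided p = 0.0286, adjusted p = 0.0571 over Vegfa and Vegfb), and those of Vegfa by -0.03 (exact p = 0.83). With 2 genes compared, 1 alone at the smallest exact p could not pass.

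**Figure D4:**
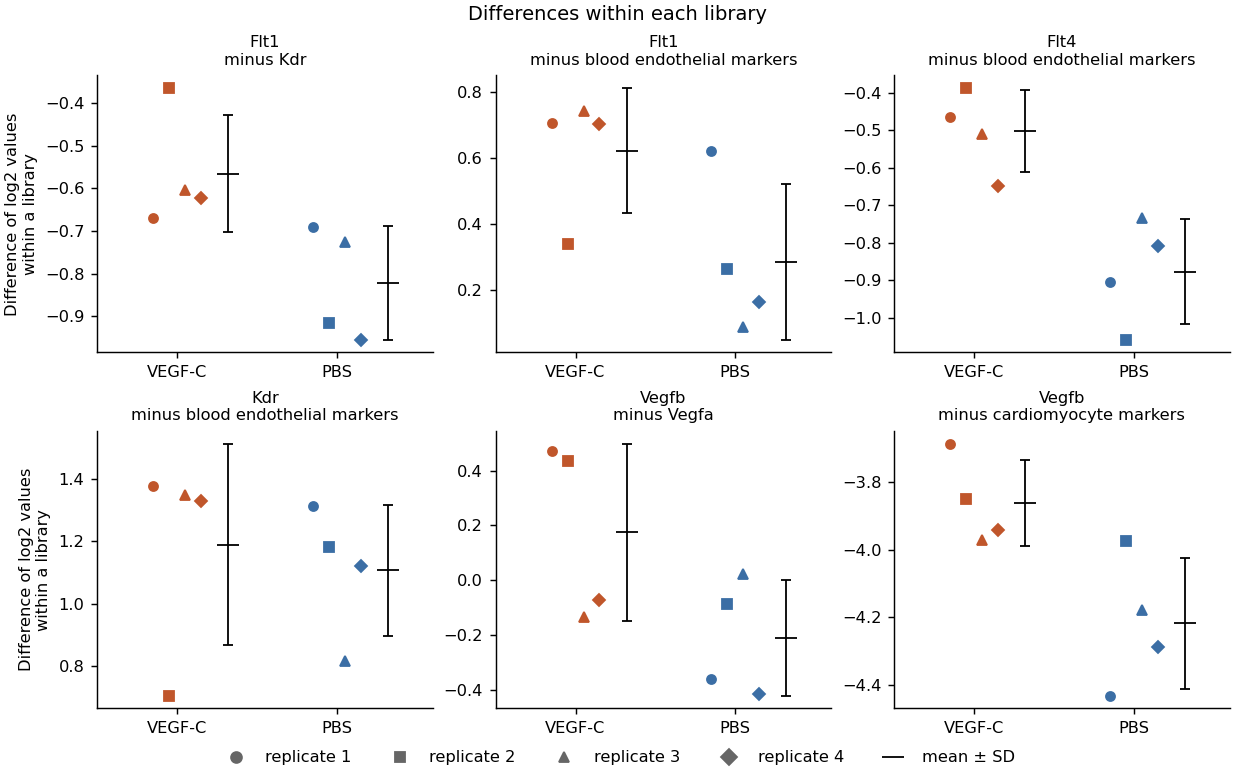
Differences of deposited log2 values within each library (vertical axes, not starting at 0) for 6 measures, with 1 point per library and the mean ± SD of 4 libraries per group. The groups do not overlap in Flt1 minus Kdr, in Flt4 minus the endothelial markers and in Vegfb minus the cardiomyocyte markers, and they overlap in the other 3; replicate shapes do not pair animals.

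Levels of different genes were ranked only per kilobase of annotated exon. In both groups Vegfb was the most abundant member, at 11245 ± 1118 normalized reads per kilobase in the VEGF-C group and 7200 ± 1146 in the PBS group, followed by Vegfa at 3740 ± 475 and 3134 ± 598 and Kdr at 1804 ± 339 and 1663 ± 218 in the same order of groups (SD, n = 4). The library ranges of these 3 genes did not overlap with those of their neighbours. Nrp1, Flt1 and Nrp2 followed at 915, 807 and 793 normalized reads per kilobase in the VEGF-C group and 812, 628 and 695 in the PBS group, and each overlapped with the next in range. Flt4 came next, at 609 in the VEGF-C group and 460.1 in the PBS group, and its range overlapped with that of Vegfd in both. Vegfd, Vegfc and Pgf were lowest, at 395, 281 and 259 in the VEGF-C group and 440.4, 272 and 216 in the PBS group. Vegfc and Pgf overlapped in both groups, and Vegfd and Vegfc in the VEGF-C group. The lengths join the exons of all annotated isoforms, so a gene with long or rarely used exons is placed too low.

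The promoters of the 3 genes that were higher are given beside that of Kdr, the VEGF receptor gene that did not pass, so that their composition can be compared. Each sequence runs 5′ to 3′ on the gene's strand from 250 bases before the start of the gene to 50 after it, taken from RefSeq on GRCm38.p6, and capitals mark GGGCGG or its reverse complement, the GC box bound by Sp1 family factors. The Vegfb window lies on chr19:6987602-6987901, minus strand, that of Flt1 on chr5:147725962-147726261, minus strand, that of Flt4 on chr11:49609429-49609728, plus strand, and that of Kdr on chr5:75978406-75978705, minus strand.
Vegfb: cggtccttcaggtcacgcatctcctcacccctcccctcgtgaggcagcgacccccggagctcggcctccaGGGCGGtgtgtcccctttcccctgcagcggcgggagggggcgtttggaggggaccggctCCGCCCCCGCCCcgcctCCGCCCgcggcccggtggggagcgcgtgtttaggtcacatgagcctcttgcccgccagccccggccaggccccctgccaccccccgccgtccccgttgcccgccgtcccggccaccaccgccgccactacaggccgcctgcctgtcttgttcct
Flt1: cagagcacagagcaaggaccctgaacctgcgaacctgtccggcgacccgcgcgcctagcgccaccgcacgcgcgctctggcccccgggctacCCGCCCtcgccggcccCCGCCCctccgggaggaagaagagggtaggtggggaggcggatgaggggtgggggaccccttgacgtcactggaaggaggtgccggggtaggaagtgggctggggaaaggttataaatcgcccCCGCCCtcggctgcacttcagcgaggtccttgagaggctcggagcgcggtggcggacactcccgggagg
Flt4: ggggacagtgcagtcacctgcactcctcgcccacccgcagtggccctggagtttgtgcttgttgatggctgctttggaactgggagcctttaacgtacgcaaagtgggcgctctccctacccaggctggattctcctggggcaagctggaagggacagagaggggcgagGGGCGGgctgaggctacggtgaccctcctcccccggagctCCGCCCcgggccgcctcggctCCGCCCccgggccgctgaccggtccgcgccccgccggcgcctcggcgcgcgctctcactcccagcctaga
Kdr: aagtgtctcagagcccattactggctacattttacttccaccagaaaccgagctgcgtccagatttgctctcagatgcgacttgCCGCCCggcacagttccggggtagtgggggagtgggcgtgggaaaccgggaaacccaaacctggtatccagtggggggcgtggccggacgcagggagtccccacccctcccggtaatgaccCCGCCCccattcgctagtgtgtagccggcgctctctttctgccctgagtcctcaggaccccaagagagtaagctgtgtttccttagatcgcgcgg

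All 10 members matched the promoter table, with 12 windows in all, since Vegfa and Pgf have 2 each. The GC box was in 10 of the 12 windows, against 35.7% of the 32851 windows of that length in the table, with 4 matches in Vegfb, 3 in Flt1, 3 in Flt4 and 2 in Kdr. GC content was 75.3% for Vegfb, 70.7% for Flt1 and 70.3% for Flt4, beside a median of 52.7% over the table. Of the members that did not pass, Nrp2 had 70.7%, Vegfc 70.3%, Nrp1 64%, Kdr 60.7% and Vegfd 42.0%. The windows of Pgf had 66% and 64% and those of Vegfa 62% and 59.3%. Vegfd, like 1 of the 2 Pgf windows, had no GC box. The core of the hypoxia response element, ACGTG on either strand, was in 1 of the 12 windows, the downstream window of Vegfa, against 19.6% of all windows. AGGAAG on either strand, a core bound by ETS factors, was in the windows of Flt1 and Nrp1, against 35.4% of all. Nrp2, which did not pass, had the most GC boxes of the 12 windows, with 5.

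Genes around the receptors were described from lists of the pathway. Over all genes tested 7.05% passed as higher and 8.61% as lower, and 11.9% as higher among those with a mean log2 value of at least 9. Of 50 genes of signal transduction behind VEGF receptors, 12 were higher and 2 lower, with a median log2 fold change of 0.17. Those with the smallest p-values were Prkcd, a protein kinase C (-0.52 ± 0.09), the GTPase gene Rac1 (0.35 ± 0.06), Shb, an adaptor that binds VEGFR-2 (0.56 ± 0.10), and Nfatc1, a calcium-regulated transcription factor (0.37 ± 0.07), with limma adjusted p-values from 0.00415 to 0.00928. In 14 of the 50 every VEGF-C library lay above every PBS library, as in 11.5% of all genes. Rac1 and Nfatc1 did not pass with library totals. With library totals 1 of the 50 was higher and 5 lower, with a median of -0.02, and 6 were higher with upper-quartile factors or without a mean-variance trend. The number higher was 6, 7 and 5 without VEGF-C replicates 1, 2 and 3 and 6 without PBS replicate 4. Most of these genes act behind many receptors besides those of VEGF.

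Of 20 genes listed as regulators of VEGF expression, 7 were higher, where 7.05% of all genes tested were. The count does not separate genes that raise VEGF expression from those that lower it. As lower, 0 of the 20 passed in limma or limma-voom, and 1 had an unadjusted p under 0.05. Ppargc1a, the coactivator PGC-1alpha, which induces Vegfa in muscle, had the largest change (1.01 ± 0.17, limma adjusted p = 0.00464), at 5851 normalized reads in the VEGF-C group and 2832 in the PBS group. The prolyl hydroxylase gene Egln3, itself induced by hypoxia-inducible factors, was 0.93 ± 0.16 higher on the log2 scale (limma adjusted p = 0.00568), and Foxo3 and Elavl1, an mRNA-stabilizing protein gene, 0.55 and 0.32. Among the subunits of those factors, Hif3a (0.93, limma adjusted p = 0.0147) and the shared partner Arnt (0.26, limma adjusted p = 0.0448) were higher. Hif3a kept its call in all 17 other fits, and Arnt lost it in 10, among them those without VEGF-C replicate 2, 3 or 4 or PBS replicate 1, 2 or 3. Hif1a and Epas1 had fold changes of 0.06 and -0.23 and did not pass (limma adjusted p = 0.765 and 0.310). With library totals Elavl1 did not pass, 5 of the 20 genes were higher, 2 were lower and the median was -0.06, against 0.13 as deposited.

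Genes that VEGF-A induces in endothelium or that mark tip cells, the leading cells of vessel sprouts, were lower in 4 of 24 cases. Over all genes tested 8.61% were lower. As higher, 0 of the 24 passed in limma and 1 in limma-voom, and 3 had an unadjusted p under 0.05. The 4 were immediate early transcription factors: Egr3 (-1.78 ± 0.35), Egr2 (-1.32 ± 0.28), Nr4a1 (-1.36 ± 0.36) and Nr4a2 (-0.80 ± 0.23), with limma adjusted p-values from 0.00935 to 0.0409. These genes respond to many stimuli in many cell types. The tip cell genes Apln and Esm1 had fold changes of 0.57 and -0.18 and did not pass (limma adjusted p = 0.0519 and 0.659), nor did Dll4 (-0.13) or Angpt2 (0.12). Without VEGF-C replicate 1 or 3 or PBS replicate 3 the count of 4 was 2, and Nr4a1 and Nr4a2 lost their call in 6 and 8 of 17 other fits.

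Of 9 measured genes for the processing of VEGF-C and VEGF-D, Furin, a proprotein convertase that cleaves the VEGF-C precursor, was higher (0.50 ± 0.08, limma adjusted p = 0.00426) and Adamts14 lower (-0.76 ± 0.11, limma adjusted p = 0.00251). Adamts3, the protease that activates VEGF-C, and Ccbe1, its cofactor, had fold changes of 0.03 and -0.20 and did not pass. Among 12 semaphorin and plexin genes the receptor genes Plxna2 (0.50 ± 0.11) and Plxna3 (-0.99 ± 0.16) went in opposite directions, although Plxna2 did not pass with library totals, and Sema3f, whose product binds neuropilin-2, was at 0.35 without passing (limma adjusted p = 0.0895). Of 24 partners and modulators of the receptors, Gpc1, a heparan sulfate proteoglycan gene, and Synj2bp were higher (0.49 and 0.31) and Cd2ap lower (-0.32). These 3 calls were lost in 8, 7 and 6 of 17 other fits: without VEGF-C replicate 1, 3 or 4 or PBS replicate 3 none of the 3 passed, Synj2bp was also lost without PBS replicate 2, Cd2ap without PBS replicate 4 and Gpc1 without PBS replicate 1. Among 9 relatives in the PDGF ligand and receptor family 0 passed in limma or limma-voom and 3 had an unadjusted p under 0.05, all as lower. The smallest limma adjusted p there was 0.135, for Csf1r (-0.18).

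**Figure D5:**
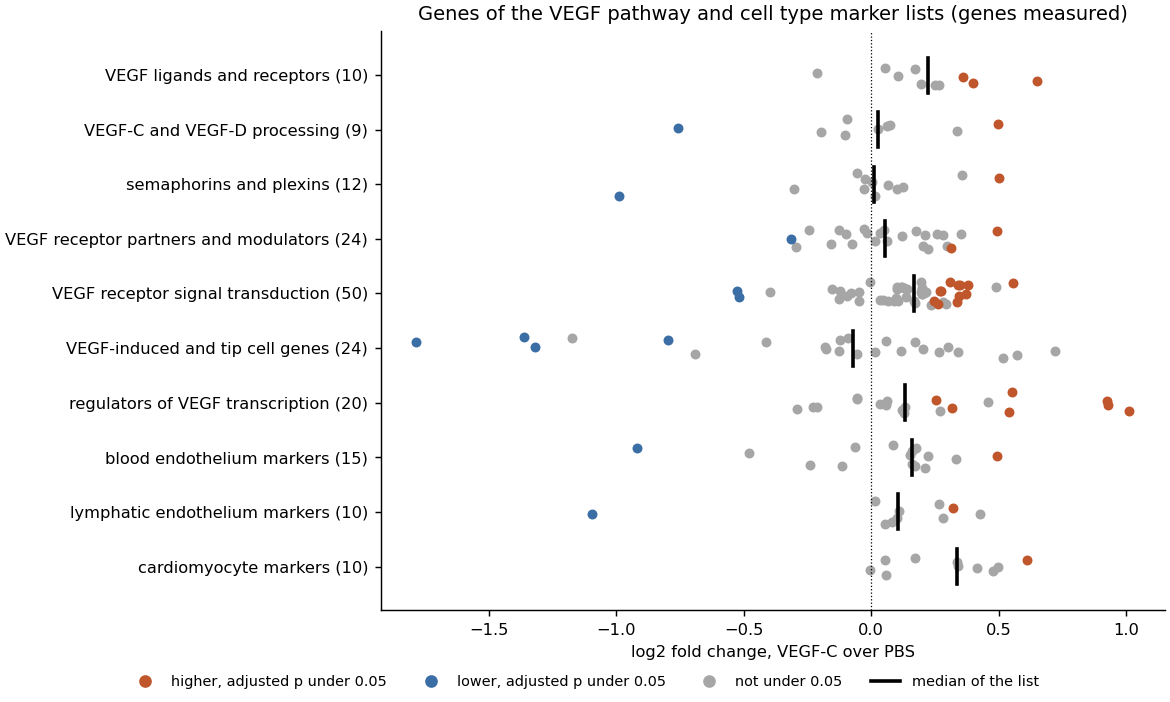
Log2 fold change of VEGF-C over PBS (horizontal axis) for each measured gene of 10 lists, with the number measured in brackets, colours for genes past an adjusted p of 0.05 and a bar at each list's median. The medians run from -0.07 for VEGF-induced and tip cell genes to 0.34 for cardiomyocyte markers, and that of the VEGF ligands and receptors is 0.22.

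Markers of other cells of the heart were read in the same fit. Fibroblast (8 genes, median 0.09), mural cell (8, 0.21), macrophage (8, -0.04) and T cell (4, 0.07) lists had 1 call among them, Col1a1, a fibrillar collagen gene, as higher (0.69). With 1 library left out these medians ran from -0.039 to 0.18 for fibroblasts, from -0.015 to 0.30 for mural cells, from -0.10 to 0.061 for macrophages and from -0.13 to 0.27 for T cells, so that none kept its sign. At an unadjusted p under 0.05, 0 mural cell genes, 1 macrophage gene and 1 T cell gene stood out. B cell genes were lower in 3 of 4 cases (1 without VEGF-C replicate 3), where 8.61% of all genes tested were. Among the 3 were Cd79a and Cd79b, which encode the signalling chains of the B cell receptor (-1.56 and -1.17). The summed level of the 4 B cell genes was 438 to 1469 normalized reads in the VEGF-C group and 1981 to 3536 in the PBS group. Of 4 neutrophil genes Csf3r was lower (-0.77), and this call was lost in 7 of 17 other fits, among them those without any 1 of the VEGF-C libraries and without PBS replicate 3. The part of these cells in the levels of the VEGF family was not tested.

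The libraries' departures from their group means were compared between genes as a description. Among 11425 other genes with a mean deposited value of at least 8, Tmem88 followed Vegfb most closely over the 8 libraries (Pearson r = 0.988), with Rgl1 and Chst15 next. Yif1a and Prmt7 were among the closest to Flt1 (0.964 and 0.958), and Fam50a was closest to Flt4 (0.975), before Mtln and Txndc12. None of these 8 genes passed the threshold between the groups. With 8 libraries and so many genes compared, values this high are the extremes of a large set.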

How the data were processed

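RNA was sequenced from heart tissue with a stranded mRNA kit, per the labels' protocols. The submitters' processing notes list DESeq2 1.38.3, featureCounts, Subread 2.0.1, STAR 2.7.10a and Trim Galore 0.6.10, with GRCm39 as the build. The sources used here give neither the annotation nor the strand setting, nor why only 18835 of 56941 genes have values. Values were deposited as log2(x + 4), where x is reads divided by 1 factor per library: 100% came out as whole reads (tolerance 0.01). The factors equalled median-of-ratios size factors. The authors deposited adjusted p-values and log2 fold changes per gene in the same table.

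Each of the 8 columns carries its group's name with a running number, which no label links to an animal, so numbers pair nothing. The sample titles carry animal numbers, which do not repeat between the groups, so the groups are unpaired. Each sample was counted as 1 replicate, and p-values measure the spread between these libraries, which may be technical in part.

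limma 3.58.1 (R 4.3.3), with a mean-variance trend and 6 residual degrees of freedom, was run on the log2 values of all genes, with Benjamini-Hochberg adjustment over all of them and a threshold of 0.05, two-sided. Fold changes on this scale slightly understate changes of genes with few reads. Differences within a library were compared with an exact permutation test over 70 assignments (scipy 1.17.1). Alternatives were other scalings, a pseudocount of 1, a minimum mean of 10 normalized reads, limma-voom with and without quality weights, robust variances, no trend, and leaving out each library. The fit was tested on simulated data with the same dispersion for every gene. That test does not bear on calls near the threshold or on calls that depend on the scaling. Exon lengths came from GENCODE M21, whose build differs from that of the values, matched by gene ID; no gene with values shares exonic bases with a member in it.

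The members and the 16 other lists were chosen with earlier results of these data known. All members are named; of each list, up to 4 genes past the threshold with the smallest p-values, or up to 2 where none passed, and for each member that passed the 3 genes most like it; 2 genes that this rule selects are not reported here. Further genes were named from the lists for their roles, after their values were seen.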

Additional observations from a re-analysis of the deposited data

Results flagged for a closer look

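In 5 of 50 checks of members, differences and groups, 1 library lay far from the other 3 of its group, with a gap to the nearest above the 95% critical share of the group's range (Dixon's ratio); chance gives this in about 1 in 20 groups. Of the 5, 3 concern VEGF-C replicate 2, the library with the least Kdr. There Flt4 minus Kdr was -1.09, with the nearest other VEGF-C library at -1.84 (0.847 of the range). Kdr minus the blood endothelial markers was 0.70, with the nearest at 1.33 (0.930), and Flt1 minus these markers was 0.34, with the nearest at 0.71 (0.909). Pgf minus Vegfa was -3.99 in VEGF-C replicate 1, with the nearest at -4.50 (0.836). Nrp1 minus Nrp2 was 0.36 in PBS replicate 1, with the nearest at -0.17 (0.928).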

How the results depend on the processing

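The number of genes past the threshold was 2949, of them 1328 higher and 1621 lower. The number higher was 797 with upper-quartile factors, 797 without a mean-variance trend and 243 with library totals, where 3572 were lower; with a library left out, 1684 to 2906 genes passed, 591 to 1268 higher and 1093 to 1638 lower. Of the 10 members 3 passed, 1 with upper-quartile factors, library totals or no trend and 1 to 2 with a library left out. Fold changes that lost their call were those of Flt1 with upper-quartile factors (0.31), library totals (0.17) and no trend (0.36), and of Flt4 with TMM factors (0.39), upper-quartile factors (0.34), library totals (0.21), limma-voom (0.40), quality weights (0.37) and no trend (0.40). With a library left out Flt1 ranged from 0.30 to 0.42, Flt4 from 0.32 to 0.49, Vegfb from 0.57 to 0.74 and Vegfc from -0.13 to 0.21. Vegfc turned to -0.0027 with upper-quartile factors and -0.14 with library totals, where Kdr was -0.085 and Nrp1 -0.020.

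Relative to the median of the endothelial markers in place of the mean, Flt1, Flt4, Nrp1 and Nrp2 passed, with differences of 0.86, 0.90, 0.67 and 0.70 (exact adjusted p = 0.0357). That median lay at other genes in the 2 groups, Esam or Emcn in VEGF-C libraries and Tie1 or Ptprb in PBS libraries, as Egfl7 moved past it. Relative to the mean of the markers without Egfl7, chosen after its change was seen, Flt4 differed by 0.31 and Flt1 by 0.27 (exact adjusted p = 0.143). With Egfl7 kept in that mean they differed by 0.37 and 0.34. With a library left out, Flt4 minus Flt1 ranged from -0.097 to 0.15, Pgf minus Vegfa from -0.16 to 0.13, Nrp1 minus Nrp2 from -0.079 to 0.11, Kdr minus the endothelial markers from -0.015 to 0.24 and Vegfa minus the cardiomyocyte markers from -0.096 to 0.053. No paired analysis was run, since the animal numbers in the sample titles do not repeat between the groups. The cause of these changes was not tested.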
